A study of Mus musculus with 2 samples.

Results

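Hepatic genes of glucose, fructose and glycogen handling were followed here, together with the glucose-responsive transcription factor ChREBP (encoded by Mlxipl) and Txnip. The set holds 31 genes listed by their place in these routes. No value on the arrays entered the rule, but earlier results of these data were known when the genes were chosen. Every probe set annotated to exactly 1 of them was taken, which gave 56 probe sets of 27 genes out of 18193 genes named on the array. Gpi1, Pfkfb1, Eno1 and G6pdx had no probe set of their own in the annotation used and were not analysed here. Liver RNA came from 12-week-old male mice on chow, harvested after 6 hr of fasting. Controls (Flox/Flox) were homozygous for the floxed Lpcat3 allele and lacked Cre, and knockouts (L-Lpcat3 KO) carried the same alleles with the albumin-Cre transgene. RNA of 5 mice was pooled per genotype and hybridized to 1 Affymetrix mouse genome expression array, so there are 2 arrays and no replicates. Every difference below is that of 1 pool against 1 pool, with no p-value and no estimate of variation among mice. Albumin-Cre is active in hepatocytes, so Kupffer cells, endothelial cells and other liver cells keep Lpcat3. The controls had no Cre transgene, and an effect of Cre itself cannot be told apart from that of the deletion. Lpcat3, an acyltransferase that puts polyunsaturated chains into phospholipids, had a signal of 3310 in controls and 1305 in knockouts. It has a single probe set, and where its probes lie relative to the deleted exon was not determined.

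The liver takes up glucose after a meal, burns part of it by glycolysis, stores part as glycogen and turns part into fat. In fasting it breaks glycogen down and makes new glucose from lactate, glycerol and amino acids by gluconeogenesis. Opposing enzymes of these routes, such as glycogen synthase and glycogen phosphorylase, are controlled by allostery and phosphorylation as well as by their mRNA. ChREBP is activated by sugar phosphates, binds carbohydrate response elements as a dimer with Mlx, and drives genes such as Pklr and Txnip. Txnip belongs to the alpha-arrestins, binds thioredoxin and restrains glucose uptake.

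The promoters of Txnip and Pklr are shown because both genes are known ChREBP targets whose signals differed between pools to unequal degrees. Windows of 250 bases before to 50 after each annotated start were searched for CACGTG, for a pair of CACGTG boxes separated by 5 bases with at most 2 mismatches in all (the layout of a carbohydrate response element), and for the cAMP response element TGACGTCA. Each pattern reads the same on both strands, and the pair overlaps the single box where it holds an exact copy. Only the 250 bases before the start are printed, 5′ to 3′, from RefSeq on GRCm38.p6, with the matched boxes in capitals. The Txnip window lies at chr3:96557707-96557956 on the plus strand, and that of the downstream annotated start of Pklr at chr3:89136373-89136622, also on the plus strand.
Txnip: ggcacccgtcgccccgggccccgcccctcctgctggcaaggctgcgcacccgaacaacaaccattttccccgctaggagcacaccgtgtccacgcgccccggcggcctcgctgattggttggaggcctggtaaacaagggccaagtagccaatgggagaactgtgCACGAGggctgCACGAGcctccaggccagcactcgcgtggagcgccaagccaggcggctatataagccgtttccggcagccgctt
Pklr: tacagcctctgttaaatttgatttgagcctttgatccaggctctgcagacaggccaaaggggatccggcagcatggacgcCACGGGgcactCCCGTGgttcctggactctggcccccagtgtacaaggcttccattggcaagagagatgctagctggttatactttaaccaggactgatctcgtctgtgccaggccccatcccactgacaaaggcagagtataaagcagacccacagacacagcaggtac
The pair begins at position -85 from the start of Txnip and at position -170 from that of Pklr, each with 2 mismatches. Of 32851 promoter windows in the table, 313 (0.953%) held such a pair. The table held 43 windows of 29 listed genes and none for Gys2 and Ppp1r3b, and Txnip and Pklr were the only listed genes with a pair. At least 1 CACGTG was present in the windows of Khk, Ldha, Mlxipl, Pcx, Pfkfb3 and Ppp1r3c, 6 of 43 windows, against 7.15% of all windows. The matching window of Ldha held 2 copies. TGACGTCA was found in 1 listed gene, Ldha, and in 1.79% of all windows. A match describes the letters and not binding.

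Transcripts of glucose metabolism differed little between the pools, with the exception of Txnip. Signals under 76.4, the median of all probe sets on both arrays, were raised to that floor, and the value of a gene is that of its brightest probe set. Pools were compared by the log2 ratio of knockouts (L-Lpcat3 KO) over controls (Flox/Flox). All 27 genes were above the floor in both pools, and 26 of them lay within 1.5-fold. Txnip was 1.77-fold higher in L-Lpcat3 KO, and no listed gene was 1.5-fold lower. Of the 12084 genes measured on the arrays, 4.04% were higher in knockouts by 1.5-fold or more and 3.19% were lower by as much. The 1 gene of 27 (3.7%) therefore lies near the background share, and the count is no result about the set. At 2-fold the set had no gene in either direction, against 0.571% higher and 0.53% lower among all genes.

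Most of these genes have bright probe sets, where ratios scatter less. Of the 27 genes, 23 lay in the top quartile of measured genes by mean signal, 3 in the next quartile (Pgd, Pfkl and Pfkfb3) and 1 (Pck2) in the quartile below that. In the top quartile 1.09% of genes were at least 1.5-fold apart in either direction, and 1.95% in the next. The 23 members of the top quartile had a median absolute log2 ratio of 0.086, beside 0.089 for all 3021 genes of that quartile. Log2 ratios within 0.2 of 0 were found for 20 of these 23 genes (87.0%) and for 83.3% of all genes of the quartile. Over all 27 genes the median log2 ratio was 0.021, with 16 above 0 and 11 below, and the median of all measured genes was 0.0030.

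**Figure D1:**
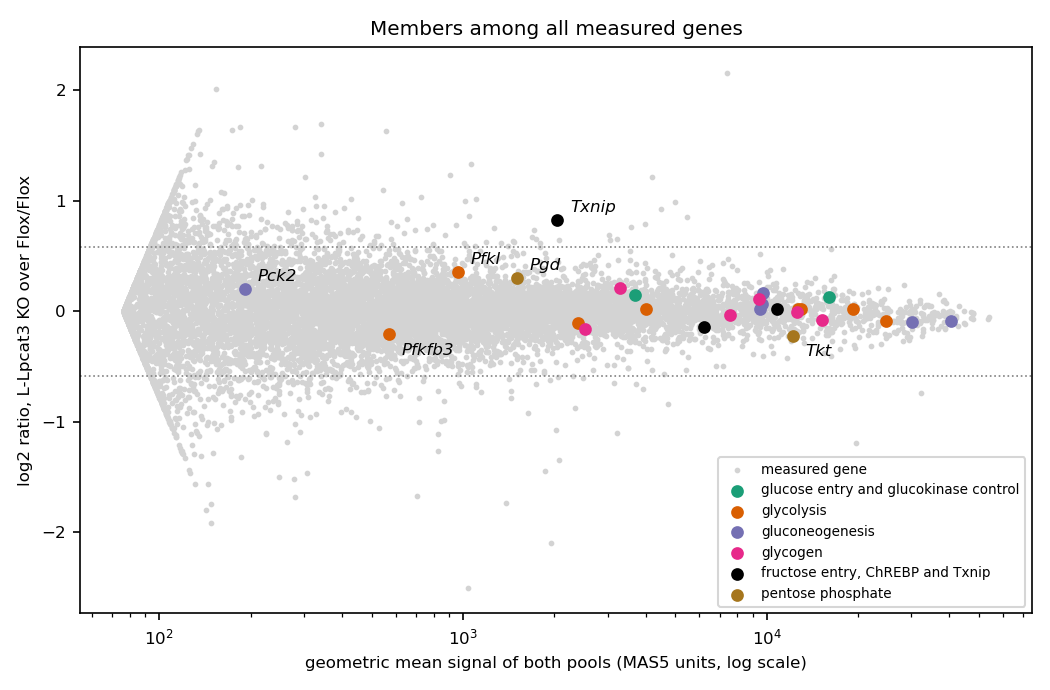
Log2 ratio of knockouts over controls (y axis) by the geometric mean of both signals (x axis, MAS5 units, log scale) for the 27 listed genes, coloured by route, with all 12084 measured genes in grey, and dotted lines mark 1.5-fold. Txnip, at 0.83, lies above the upper line, and the other 26 genes lie between the lines, from -0.22 (Tkt) to 0.35 (Pfkl).

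Txnip was higher in L-Lpcat3 KO by both of its probe sets. The brighter gave a signal of 1536 in controls and 2726 in knockouts (log2 ratio 0.83), and the other gave 368 and 628 (log2 ratio 0.77). Their ratios thus differed by little, and both lay past 1.5-fold in the same direction. Of the 4495 genes for which at least 2 probe sets passed the floor in both pools, 14 (0.311%) had every one of them at least 1.5-fold higher. Among the 3021 genes of the top quartile, the ratio of Txnip ranked at position 6, and over all measured genes at position 173. The study's text names Txnip for these arrays, so its place at the head of this set is not independent evidence.

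The transcript of ChREBP itself lay within 1.5-fold. Mlxipl had a signal of 6543 in controls and 5918 in knockouts (log2 ratio -0.15). Pklr, the liver pyruvate kinase and a classical ChREBP target, was 2486 and 2308 by its brightest probe set (log2 ratio -0.11). Other probe sets of Pklr gave log2 ratios of 0.053 and -0.34, the latter at signals of 265 and 209. The log2 ratio of Txnip exceeded that of Mlxipl by 0.97. Whether ChREBP activity differed between the pools was not tested. The partner Mlx was 530 and 602 (log2 ratio 0.18), and the related glucose sensor Mlxip (MondoA) 263 and 266 (0.014). Khk, the ketohexokinase that phosphorylates fructose on its entry into metabolism, was 10726 in controls and 10890.1 in knockouts (log2 ratio 0.022).

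Arrestins related to Txnip were mixed. Arrdc3, with 1 probe set, was 1185 in controls and 1835 in knockouts, 1.55-fold higher. Arrdc4, which like Txnip is a known target of ChREBP and MondoA, was 142 and 221 by the probe set taken (1.55-fold higher), whereas its other probe set went from 167 to 119 (log2 ratio -0.48). The Arrdc4 probe sets therefore give no direction. Arrdc1 (log2 ratio -0.42, with 0.16 by another probe set) and Arrdc2 (-0.042) lay within 1.5-fold. After median centring of the arrays, Arrdc3 and Arrdc4 came to log2 ratios of 0.55, below 1.5-fold. Klf15, a fasting-responsive factor on the same list, was 5282 and 5452 (log2 ratio 0.046). The thioredoxin genes differed little, with log2 ratios of -0.061 for the cytosolic Txn1 and 0.17 for the mitochondrial Txn2, and the reductase Txnrd1 was 3290 and 3251 (-0.017).

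**Figure D2:**
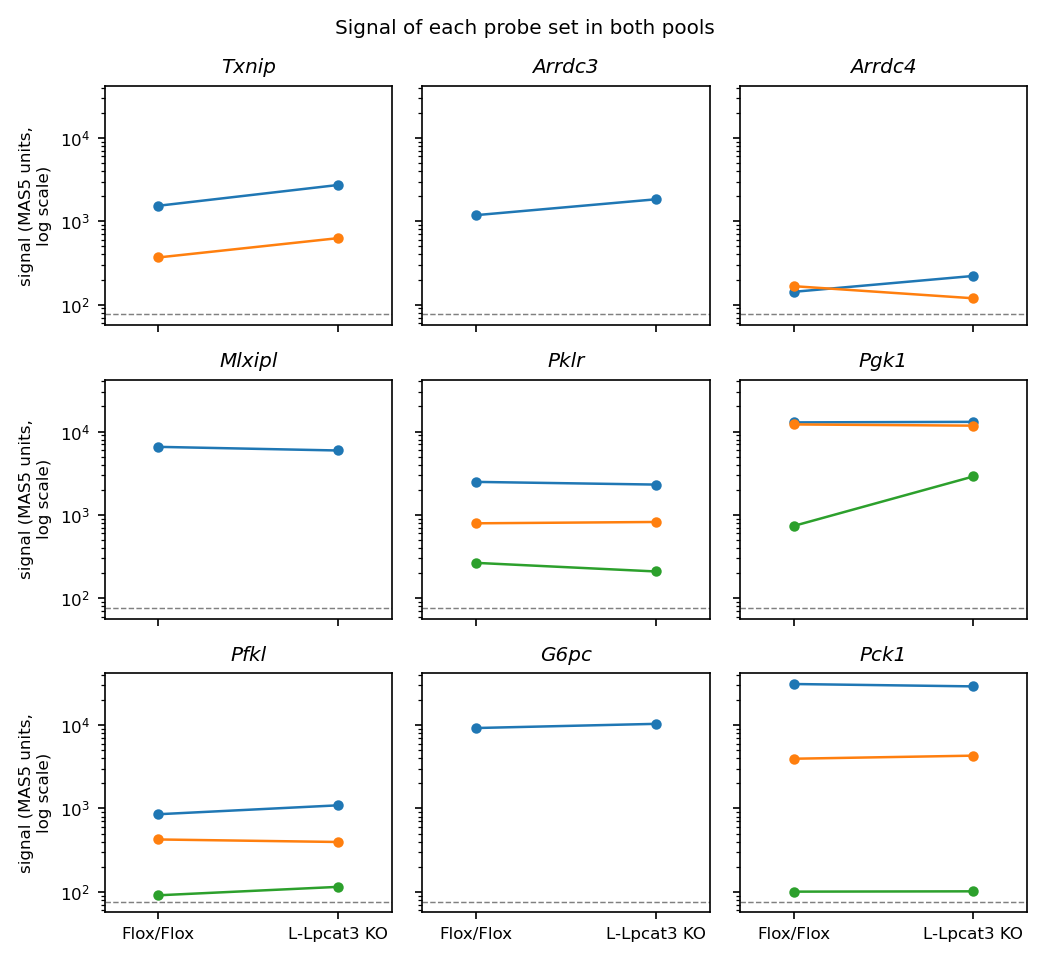
Signal of each probe set (y axis, MAS5 units, log scale) in the Flox/Flox and the L-Lpcat3 KO pool (x axis) for 9 genes, 1 coloured line per probe set; the dashed line is the floor of 76.4. Both Txnip lines go up, the Arrdc4 lines cross, and 1 of 3 Pgk1 lines goes up 3.93-fold while the others stay level.

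The genes of glucose entry were slightly higher in L-Lpcat3 KO, both by less than 1.5-fold. Slc2a2 encodes GLUT2, the carrier that lets glucose into and out of hepatocytes, and was 15362 in controls and 16774 in knockouts (log2 ratio 0.13). Gckr, the regulatory protein that holds glucokinase in the nucleus at low sugar levels, was 3509 and 3893 (log2 ratio 0.15). After median centring the median of this pair was 0.059 instead of 0.14, and that of all measured genes was -0.074 instead of 0.0030. Glucokinase itself was not analysed here.

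Glycolytic transcripts were close in both pools. All 8 measured genes of the route lay within 1.5-fold, with a median log2 ratio of 0.018, 5 above 0 and 3 below. So did 11210 of the 12084 genes measured on the arrays. The enzymes that handle triose phosphates and their products had ratios close to 0. Tpi1, triose phosphate isomerase, was 12568 in controls and 12741 in knockouts (log2 ratio 0.020), and its other probe sets gave -0.12 and 0.041. Gapdh, the dehydrogenase often used as a reference in real-time PCR, was read here from 3 control probe sets and was 25460 and 23990 by the brightest (log2 ratio -0.086, range -0.11 to -0.051). Pgk1, phosphoglycerate kinase, was 12859 and 13052 by its brightest probe set (log2 ratio 0.021). Pgam1, the mutase that follows, was 3967 and 4029 (log2 ratio 0.022). Ldha, which interconverts pyruvate and lactate, was 19127 and 19350.3 (log2 ratio 0.017). Several of these genes have processed pseudogenes, whose RNA the probe sets may also capture.

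Phosphofructokinase and its activating kinase have dimmer probe sets, in the signal quartile below the top, where the median absolute log2 ratio of all genes was 0.127. Pfkl, the liver subunit of phosphofructokinase, was 852 in controls and 1090 in knockouts by its brightest probe set, a log2 ratio of 0.35. Its second probe set went from 424 to 396 (log2 ratio -0.10), and the third, close to the floor, from 90.8 to 115 (0.34). The direction of Pfkl therefore depends on the probe set. Pfkfb3, a kinase that makes fructose 2,6-bisphosphate and so stimulates phosphofructokinase, was 612 and 529 (log2 ratio -0.21). Its other probe set was under the floor in both pools.

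Gluconeogenic genes also differed little. The 6 genes had a median log2 ratio of 0.046, and all 6 lay within 0.2 of 0. All but Pck2 are in the top signal quartile, where 83.3% of all genes lay as close to 0. Pcx, pyruvate carboxylase, which starts the route in mitochondria, was 9436 in controls and 9594 in knockouts (log2 ratio 0.024), and its 4 control probe sets gave log2 ratios from -0.054 to 0.0040. Pck1, the cytosolic phosphoenolpyruvate carboxykinase and a gene strongly induced by fasting, was 31084 and 29118 (log2 ratio -0.094). Other Pck1 probe sets gave log2 ratios of 0.12 and 0.013. The mitochondrial isoenzyme Pck2 was 179 and 206 (log2 ratio 0.20), with another probe set under the floor in both pools. Fbp1, fructose-1,6-bisphosphatase, which opposes phosphofructokinase, was 41705 and 39302 (log2 ratio -0.086).

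Genes of the last step of glucose production lay within 1.5-fold. G6pc, the catalytic subunit of glucose-6-phosphatase, was 9217 in controls and 10342 in knockouts (log2 ratio 0.17). Slc37a4, which carries glucose 6-phosphate into the ER for this enzyme, was 9396 and 9855 (log2 ratio 0.069). After median centring these ratios were 0.087 for G6pc and -0.010 for Slc37a4, beside a median of -0.074 for all measured genes. G6pc and Pck1 are both raised by glucagon and held down by insulin. By the brightest probe sets their log2 ratios were 0.26 apart, but the probe sets of Pck1 share no direction, and their mean was 0.014.

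Genes of glycogen turnover were within 1.5-fold in all 6 cases, with a median log2 ratio of -0.022. All 6 are in the top signal quartile, where 2988 of 3021 genes lay within 1.5-fold. Gys2, the liver glycogen synthase, was 7672 in controls and 7479 in knockouts (log2 ratio -0.037). Pygl, the liver phosphorylase that releases glucose from glycogen, was 15696 and 14831 (log2 ratio -0.082). Synthase and phosphorylase thus differed by 0.045 in their log2 ratios. Ugp2, which makes UDP-glucose for the synthase, was 12618 and 12563 by its brightest probe set (log2 ratio -0.0063), and its 5 probe sets ran from -0.18 to 0.063. Gbe1, the branching enzyme, was 2656 and 2382 (log2 ratio -0.16).

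The scaffolds that bring protein phosphatase 1 to glycogen both had ratios above 0. Ppp1r3b (the liver subunit G L) was 9108 in controls and 9829 in knockouts (log2 ratio 0.11). Ppp1r3c (also called PTG) was 3074 and 3548 (log2 ratio 0.21), whereas its dim probe set was 172 and 168 (-0.026). After median centring the medians of glycolysis, gluconeogenesis, the pentose phosphate route and the group of Khk, Mlxipl and Txnip changed sign, to between -0.061 and -0.032. The median of all measured genes moved likewise, from 0.0030 to -0.074, and these route medians stayed above it. Route medians of this size give no direction.

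In the pentose phosphate pathway, which supplies NADPH and ribose, 2 of 3 genes were measured and their ratios had opposite signs. Pgd, 6-phosphogluconate dehydrogenase, was 1361 in controls and 1679 in knockouts by the probe set taken (log2 ratio 0.30). Its 4 probe sets ranged from -0.17 to 0.30, and the next brightest went from 1544 to 1372. Tkt, transketolase, was 13183 and 11317 (log2 ratio -0.22), with 0.13 by its second probe set. Neither gene has a direction that its probe sets share.

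**Figure D3:**
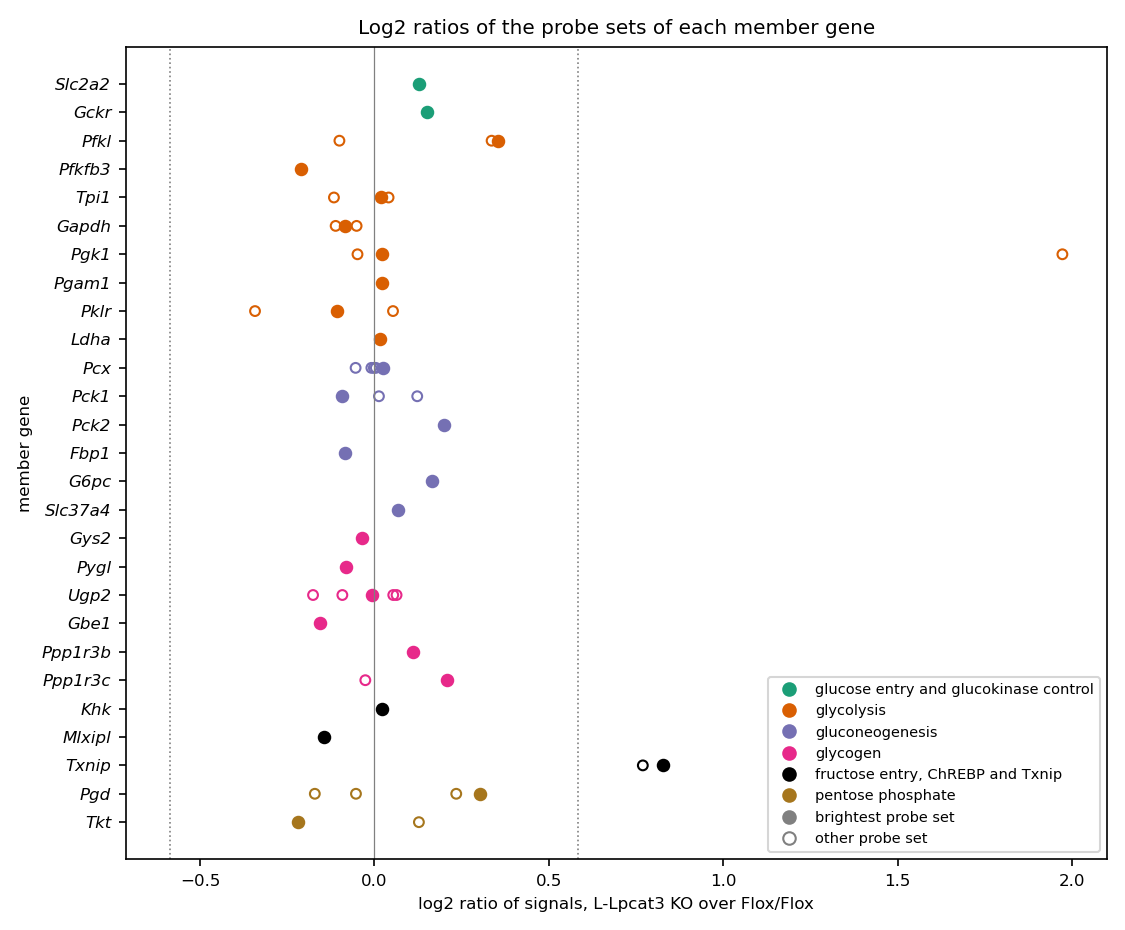
Each probe set above the floor in both pools of the 27 listed genes (rows) is a point coloured by route, placed on the x axis by its log2 ratio of knockouts over controls; filled points are the brightest probe set of a gene, open points the others, and dotted lines mark 1.5-fold. Both Txnip points lie right of the line at 0.77 and 0.83, and 1 open Pgk1 point stands at 1.97, away from its other points near 0.

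Probe sets annotated to 1 gene gave a gauge of how far a ratio can vary within the same pair of arrays. Of the 56 probe sets, 53 were above the floor in both pools, 1 in a single pool and 2 in neither. Of the 12 genes for which at least 2 probe sets passed the floor in both pools, 10 had ratios of both signs among their probe sets, and only Txnip and Gapdh had ratios of 1 sign. The pooled SD of log2 ratios within a gene was 0.35 over 38 probe sets, and 0.15 without 1 discordant probe set of Pgk1, left out after its value was seen. The log2 ratio of Txnip was larger than 2 times either SD, and those of Pfkl and Pgd were larger than 2 times the smaller one only. Pfkl and Pgd are among the 10 genes with probe sets of both signs. Both SDs include the probe sets of these genes themselves, so the multiples are a description and no test. Such a spread says nothing of the variation among mice.

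A Pgk1 probe set went from 736 in controls to 2887 in knockouts, 3.93-fold, while the other probe sets of the gene had log2 ratios of 0.021 and -0.049. It had the 4th highest ratio of the 20650 probe sets measured, of which 0.644% were at least 2-fold higher. Its name ends in _x_at, which marks probes that may bind other transcripts. Of 1378 measured probe sets of this kind, 2.54% were at least 2-fold apart, against 1.13% of the 14897 with a plain _at name. Which RNA the probe set read was not tested. In all, 3 of 54 measured probe sets (5.56%) were at least 1.5-fold higher, 2 of Txnip and this one, against 4.4% of all measured probe sets, and none was 1.5-fold lower, against 3.62%.

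Other genes of these pathways were compared as lists. Of 72 measured enzymes, carriers, arrestins and ChREBP partners beside the set, 4 (5.56%) were higher by 1.5-fold or more and 2 (2.78%) lower by as much, close to the shares of all genes, and their median log2 ratio was 0.048. With the regulators and clock genes added, 7 of 103 (6.80%) were higher and 4 (3.88%) lower, against 4.04% and 3.19% of all genes. Counts this small are no result about these lists. All 17 measured genes of the list of other glycolytic and gluconeogenic genes lay within 1.5-fold, with a median of 0.0030. Aldoa, the aldolase of muscle and many other tissues, was 3191 and 3758 by its brightest probe set. All 5 of its probe sets had ratios above 0, from 0.15 to 0.81. Each is named _x_at, so all may bind other transcripts, and the highest ratio is that of the dimmest (852 and 1490). Ldhd, a mitochondrial D-lactate dehydrogenase, was 5549 in controls and 4671 in knockouts (log2 ratio -0.25), and Aldoc, the aldolase first known from brain, was 1364 and 1288 (-0.083).

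Transcripts for pyruvate entry into mitochondria were read as well. Of 16 measured genes 15 lay within 1.5-fold, as did 11210 of all 12084, with a median log2 ratio of 0.0019. The largest ratios among these 15 were those of Dlat (0.39, with 0.011 as the lowest of its 3 probe sets) and Pdp2 (0.36). Pdk4, the fasting-induced kinase that shuts off pyruvate dehydrogenase, was 257 in controls and 284 in knockouts (log2 ratio 0.15). Pdp1, a phosphatase that reactivates the complex, was 123 in controls and under the floor in knockouts (57.3), at least 1.61-fold lower for this floor. It lies in the dimmest quartile, where 227 of 3021 genes were lower by 1.5-fold or more. The bright members Mdh1, Got2 and Mdh2 had log2 ratios of -0.23, -0.038 and -0.18 by their brightest probe sets. The 3 probe sets of Got2 ran from -0.68 to 0.16 and the 4 of Mdh1 from -0.23 to 0.046, so neither gene has a shared direction. The other fructose and polyol genes (4 measured, median 0.15) and the other pentose phosphate genes (8 measured, median 0.043) had none past 1.5-fold. Tkfc, which phosphorylates glyceraldehyde from fructose, was 2698 and 3327 (log2 ratio 0.30), while Glyctk, the glycerate kinase, was 2836 and 2662 (-0.092) and the sugar carrier Slc2a8 609 in both pools. H6pd, which runs the oxidative steps inside the ER, was 8883 and 8806 (log2 ratio -0.013), and Taldo1, transaldolase, was 3947 and 3493 (-0.18). Prps1, which makes phosphoribosyl pyrophosphate, was 2638 and 2824 (log2 ratio 0.098).

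Among 16 other glycogen genes, 12 had ratios above 0, against 50.7% of all measured genes, and the median log2 ratio was 0.12. Past 1.5-fold, 2 were higher and 1 lower, against 4.04% and 3.19% of all genes. Such counts are no result about this list. Ppp1r3e, another glycogen scaffold of protein phosphatase 1, was 258 in controls and 411 in knockouts (1.60-fold higher), but its other probe set gave a log2 ratio of 0.17. Pygb, the brain form of phosphorylase, was 119 and 181 (1.52-fold higher, and below 1.5-fold after each of the 3 other scalings). Gys1, the muscle form of glycogen synthase, was 129 in controls and under the floor in knockouts (59.4), at least 1.69-fold lower for this floor. All 3 are dim here. Pygb and Gys1 lie in the dimmest quartile of measured genes, where 55.3% had ratios above 0. Within that quartile 330 of 3021 genes were higher by 1.5-fold or more and 227 were lower by as much. Of the brighter members, Pgm1 was 4868 and 5191 (log2 ratio 0.093, with 0.98 by a dim probe set), Stbd1, which anchors glycogen to membranes, 4352 and 5017 (0.21), and the lysosomal glucosidase Gaa 1490 and 1658 (0.15).

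Of 17 measured regulators of gluconeogenic genes, 2 were higher by 1.5-fold or more and 1 was lower by as much, against 4.04% and 3.19% of all genes, and the median log2 ratio was 0.057. The hepatic factors Hnf4a (-0.11) and Cebpb (-0.10) and the aminotransferase Tat (-0.060), a target of glucocorticoids, differed little in log2 ratio. The coactivator Ppargc1a was 432 in controls and 510 in knockouts (log2 ratio 0.24), and Igfbp1, a secreted protein that insulin represses, was 9841 and 8695 (-0.18). Onecut1, a hepatic transcription factor, was 247 and 433 (1.75-fold higher), with a log2 ratio of 0.33 in its second probe set. The insulin receptor substrates had ratios of opposite sign. Irs1 was 956 and 1476 (1.54-fold higher, 0.55 on the log2 scale after median centring), and Irs2, which fasting induces, was 164 and 104 (1.58-fold lower). Irs2 lies in the dimmest quartile, where 227 of 3021 genes were lower by 1.5-fold or more.

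**Figure D4:**
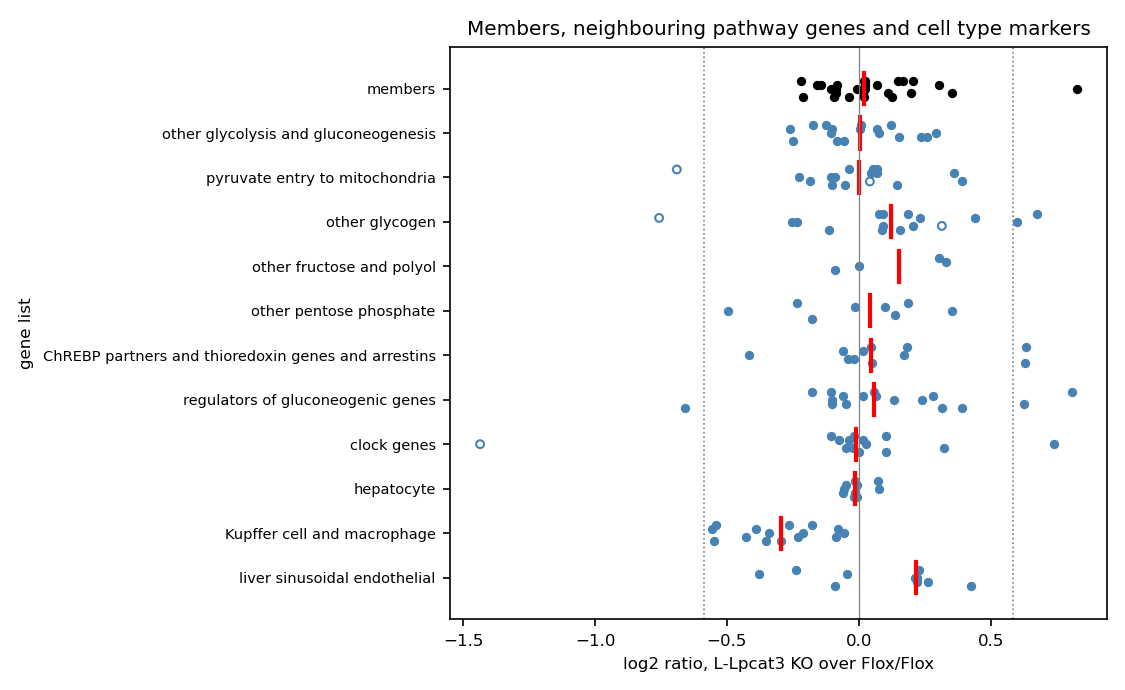
The x axis is the log2 ratio of knockouts over controls of the 27 listed genes (black), of 8 lists of related genes and of 3 lists of cell type markers (y axis), 1 point per measured gene; open points have 1 pool under the floor, red bars are medians and dotted lines mark 1.5-fold. The listed genes have a median of 0.021, and the Kupffer cell and macrophage markers of -0.30.

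Markers of cell types and of the clock were read beside these results. Hepatocyte markers were bright and even, with 10 of 10 within 0.2 of 0 on the log2 scale and a median of -0.016. Of all measured genes 60.3% lay as close to 0, and of the top quartile 83.3%. Markers of Kupffer cells and macrophages had ratios below 0 in 15 of 15 cases, none past 1.5-fold, against 5958 of 12084 measured genes. Their median log2 ratio was -0.30, with summed signals of 15689 in controls and 13489 in knockouts, and another probe set of C1qb gave 0.16. Of 28 genes of other tissues with a probe set, read as a gauge of background, 22 were under the floor in both pools. The 6 measured were also below 0 (median -0.15). Sinusoidal endothelial markers were above 0 in 6 of 10 cases, with a median of 0.22 and summed signals of 8350 and 9505. Stellate cell markers (7 of 8 measured, median 0.053), bile duct markers (3 of 4 with a probe set, 0.40), neutrophil markers (6, -0.11) and lymphocyte markers (3 of 9, -0.29) were mixed. The single measured red blood cell marker was Alas2 (0.23). The stellate marker Col3a1 went from 1758 to 1151 (1.53-fold lower), and no other of its list passed 1.5-fold. Of the 7 measured stellate markers, 5 had ratios above 0. Of the bile duct markers, Krt7 and Epcam were under the floor in controls, whereas Sox9 went from 162 to 77.6 (2.08-fold lower). Each measured neutrophil marker was above the floor in 1 pool only. Krt19, Cd3e, Cd79a and 5 of 5 skeletal muscle markers were under the floor in both pools. Fewer cells of a type and less RNA per cell cannot be told apart in whole liver. Genes such as Txnip, Pfkfb3 and Pgd are expressed in many cell types, and the part of these cells in their ratios was not tested.

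Of 14 measured clock genes, 1 was higher and 1 lower by 1.5-fold or more, beside the same 4.04% and 3.19% of all genes, with a median log2 ratio of -0.0091. The repressor Nr1d1 was 207 in controls and under the floor in knockouts (48.6), at least 2.70-fold lower for this floor. By mean signal it lies in the dimmest quartile, where 42 of 3021 genes were at least 2-fold lower. Cry1 was 323 and 539 (1.67-fold higher), while Dbp, with a strong daily rhythm, was 4966 in both pools and Nr1d2 was 7639 and 7380. Tef, a relative of Dbp, was 6575 and 6493 (log2 ratio -0.018). Whether these genes bear on Txnip was not tested.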

How the data were processed

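Liver RNA pools of 5 mice per genotype were measured on 1 Affymetrix mouse genome expression array each. The values the authors deposited are MAS5 signal intensities on a linear scale, 1 for each probe set on each array, per the submitters' processing notes. The sources used here do not give the MAS5 version, and the methods name GeneSpring GX. Each array had a mean of 500.0 after trimming 2% at each end, a scaling that hides any overall difference in signal. The number of arrays limits the precision. Of 45101 probe sets, 64 are controls and 34945 others had 1 gene symbol in the platform annotation, updated by gene ID to RefSeq (GRCm38.p6). Controls were used only for Gapdh and Pcx, where the rule takes every probe set.

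Log2 was taken without further scaling, after raising signals to the floor. The value of a gene is its probe set with the highest mean log2 signal. With 1 array per genotype no test was run. Named were all listed genes, related genes at least 1.5-fold apart, up to the 3 brightest of each related list and a few fixed ones. Mlx, Mlxip, Arrdc1, Arrdc2, Txn2, Dlat, Pdp2 and Col3a1 were chosen after their values were seen. The listed genes and lists were chosen with earlier results of these data known. Scaling, floor and gene summary were varied. Scripts were tested on simulated data. Python 3.11.15, numpy 2.4.6, pandas 2.3.3, statsmodels 0.14.6 and matplotlib 3.10.9 were used.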

Additional observations from a re-analysis of the deposited data

Results flagged for a closer look

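Probe sets that list Gapdh beside a pseudogene or other genes took no part in the comparison, and their signals lay outside the main measurement. A probe set that lists Gapdh with 1 pseudogene went from 249 in controls to 134 in knockouts (1.85-fold lower), and another with the same pair of genes went from 346 to 529 (1.53-fold higher). Another, which lists 5 genes, was 25741 and 25872 (log2 ratio 0.0073).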

How the results depend on the processing

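With 1 array per genotype there was no replicate to leave out. No paired analysis was possible because each genotype is 1 pool. Txnip was at least 1.5-fold higher under all 11 alternatives to scaling, floor and gene summary, with log2 ratios from 0.75 (median centring) to 0.83 (loess). Some of these could not change its value. Its brightest probe set has a plain _at name and lies above every floor tried. Moving or dropping the floor, and leaving out _s_at, _x_at or control probe sets, therefore left its ratio as it was. The median of the listed genes ran from -0.057 (median centring) to 0.037 (loess). Under median centring the median of all measured genes was itself -0.074. The count of listed genes at least 1.5-fold higher was 2 with the mean over probe sets, which added Pgk1 (log2 ratio 0.65) through its discordant probe set, and 0 at 2-fold. By second brightest probe sets, which 12 listed genes have, the median of Khk, Mlxipl and Txnip was 0.77, since only Txnip has a second one. Pgd came to -0.17 and Pfkl to -0.10 by second brightest probe sets, and Pgd to -0.053 once probe sets named _s_at and _x_at were left out. Of 280 values of listed genes under alternatives, 4 moved by at least 0.35, the pooled SD that the discordant Pgk1 probe set widens. Tkt, from -0.22 to 0.13 by its second brightest probe set, fell just under this cutoff. The SD of 0.15 without that Pgk1 probe set was not used for the count, and more values would pass it. Among related genes Arrdc4 reversed, to -0.48 by its second brightest probe set. Leaving out control probe sets, and running related genes and markers under these alternatives, was chosen after seeing the data.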
